A study of Homo sapiens with 12 samples.

Results

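In parental SKOV-3 cells, the 2 RNA-seq libraries numbered 3 were compared with the 4 numbered 1 or 2, with knockout status taken into account. The 6 parental libraries, of 12 in the series, were 3 from cells of wild-type genotype, here called controls, and 3 from cells in which KDM5A and KDM5B had both been knocked out. The 2 genes encode enzymes that take methyl groups off lysine 4 of histone H3. All 6 came from cells with no drug resistance, grown in the same serum-supplemented medium. SKOV-3 is an established human ovarian adenocarcinoma line known for amplification of ERBB2. The other 6 libraries, also 3 per genotype and numbered 1 to 3, came from a cisplatin-resistant derivative. The labels give neither the meaning of a number nor the number of knockout clones, and do not say that libraries came from separate cultures, so p-values measure only the spread between libraries, which may be technical.

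The split was selected on the measured counts themselves: it was chosen because same-numbered parental libraries had been seen to deviate together, so in parental cells it is described without a test. Deviations from the genotype mean correlated between control and knockout libraries of the same number at 0.70 for number 1, 0.81 for number 2 and 0.81 for number 3, across 16810 genes. Of the within-genotype variation of log2 CPM (counts scaled to library size), 88.5% lay in deviations averaged over the control and knockout of the same number. Averaging keeps part of what libraries do not share, so this figure would be well above 0 without any sharing. Of the same variation, and with a floor of the same kind, number 3 against 1 and 2 held 51.0%, and 1 against 2 held 37.5%. A gene is called set apart when, in each genotype, number 3 lay beyond both other libraries and at least 2-fold from their mean on the log2 scale, in the same direction. By this rule 1416 of 16810 genes (8.42%) were higher in number 3 and 673 (4%) were lower.

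Cells in culture change programmes with nutrient supply, density and time since passage. E2F factors switch on replication genes as cells enter S phase, and the SREBP factors switch on sterol synthesis and uptake genes when membrane sterol is low. ATF4, made when translation is slowed by stress, drives amino acid and stress genes, and NF-kB drives inflammatory cytokines. These programmes are background for the lists below and were not measured here other than as transcripts.

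Total counts ran from 15987117 to 19706754 in the parental libraries. The targeted transcripts check the labels in part. KDM5A read 30.0, 38.5 and 38.7 CPM in controls 1 to 3 and 22.1, 19.5 and 15.4 in knockouts 1 to 3, so the genotypes did not overlap. Its log2 difference was -0.91, with p = 0.1 in a two-sided exact permutation test, the smallest that 3 against 3 can give. KDM5B read 49.4, 74.0 and 42.2 CPM in controls and 56.4, 73.5 and 24.9 in knockouts, which overlapped (log2 difference -0.19, exact permutation p = 0.8). A transcript can persist after an edit that ends its protein, and the edited sites were not used here. ERBB2 and PAX8 were present in every parental library, while the epithelial cadherin CDH1 was low and WT1 was near 0.

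Genes of DNA replication stood higher in both libraries numbered 3. Of 41 tested, 27 were set apart as higher and none as lower, beside 8.42% and 4% of all genes. Their median fitted log2 difference was 1.46, against -0.0016 over all genes. Number 3 lay above the mean of the others in both genotypes for 40 of 41, the exception being CCNE1, the cyclin of S-phase entry, which read 33.6, 14.4 and 10.6 CPM in controls and 16.2, 13.4 and 12.1 in knockouts. Bulk RNA cannot tell fewer cells of a phase from less RNA per cell.

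RRM2, the small subunit of ribonucleotide reductase (ENSG00000171848, GRCh38 chromosome 2, 10120698 to 10131419), read 27.0, 41.7 and 179 CPM in controls 1 to 3 and 18.3, 31.6 and 184 in knockouts. Both libraries numbered 3 were far above the other 4. UHRF1, which guides DNA methylation to newly copied DNA (ENSG00000276043, chromosome 19, 4903080 to 4962154), read 18.3, 15.1 and 79.0 CPM in controls and 20.04, 11.3 and 87.6 in knockouts. ORC1, a subunit of the origin recognition complex, gave 8.69, 6.89 and 43.4 CPM in controls and 12.6, 5.96 and 48.4 in knockouts. These genes had fitted log2 differences of 2.64 for RRM2, 2.36 for UHRF1 and 2.43 for ORC1.

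The replicative helicase was set apart in part. MCM5, one of its subunits, read 37.4, 42.7 and 138 CPM in controls and 50.6, 36.3 and 161 in knockouts. MCM3, MCM4 and MCM6 were also set apart, but MCM2 and MCM7 were higher by less than the 2-fold limit, with fitted log2 differences of 0.70 and 0.88. GINS2, of the GINS complex that completes the helicase, read 9.33, 6.78 and 29.7 CPM in controls and 7.78, 5.12 and 40.3 in knockouts. Libraries 1 and 2 did not keep 1 order across these genes: for UHRF1, ORC1 and GINS2 number 1 was the higher of the pair in both genotypes, and for RRM2 number 2 was.

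Promoters of list members were searched for the E2F motif in the forms TTTCCCGC, TTTGGCGC, TTTCGCGC and TTTGCCGC, on both strands of the 250 bases before the RefSeq start (GRCh38.p14). A promoter was at hand for 22 of the 27 members set apart, and 11 (50%) held a match. Matches were found in 14 of 36 members tested (38.889%), in 4.374% of 11318 genes tested and in 2.787% of all 27305 promoters. Of all 891 promoters of genes set apart as higher, 4.602% held it, near the share of all genes tested. Below are UHRF1 (chr19:4909251-4909500, plus strand) and GINS2 (chr16:85688955-85689204, minus strand), shown because both genes were far apart and hold 1 match each. Capitals mark the match, which overlapped no other motif searched here; a match is a description, not a bound site.
UHRF1: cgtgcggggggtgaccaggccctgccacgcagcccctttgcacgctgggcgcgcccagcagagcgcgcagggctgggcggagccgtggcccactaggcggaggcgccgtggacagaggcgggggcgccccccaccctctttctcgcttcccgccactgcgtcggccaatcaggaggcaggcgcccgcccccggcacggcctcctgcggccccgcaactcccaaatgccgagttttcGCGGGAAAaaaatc
GINS2: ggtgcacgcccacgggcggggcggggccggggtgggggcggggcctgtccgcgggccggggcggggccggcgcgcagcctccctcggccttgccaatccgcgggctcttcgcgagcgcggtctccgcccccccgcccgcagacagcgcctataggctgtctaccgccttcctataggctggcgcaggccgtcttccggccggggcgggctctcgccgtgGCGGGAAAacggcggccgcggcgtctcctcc

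**Figure D1:**
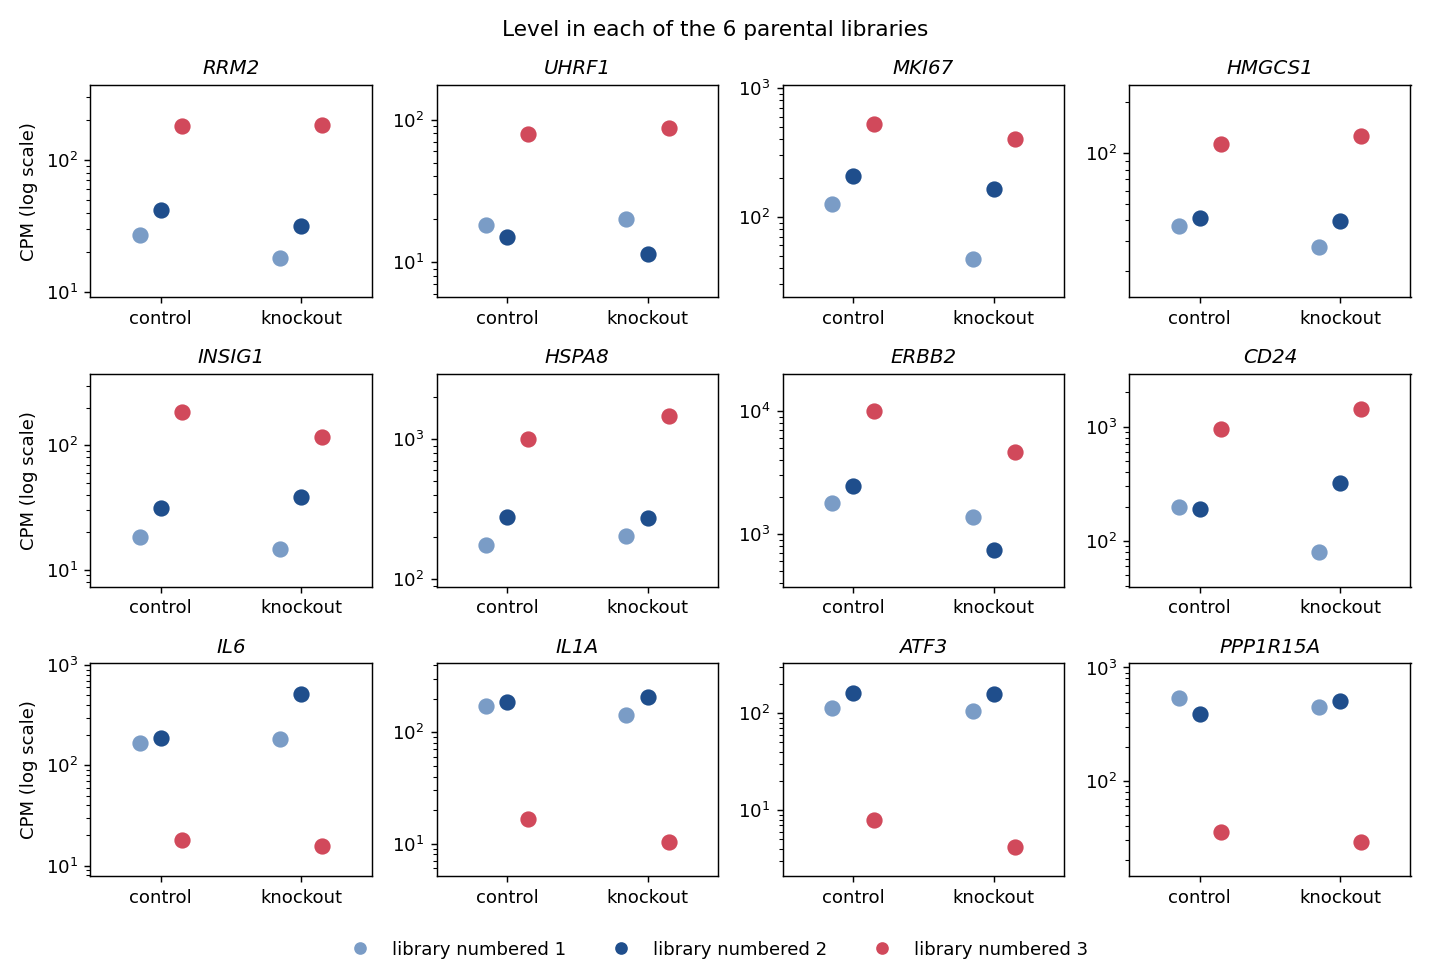
CPM (log axis, a separate range per gene) of 12 genes in each parental library, controls at left and knockouts at right, 1 point per library. Points numbered 3 lie above the others for RRM2, UHRF1, MKI67, HMGCS1, INSIG1, HSPA8, ERBB2 and CD24 and below them for IL6, IL1A, ATF3 and PPP1R15A.

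Mitosis genes were higher as well, but less evenly. Of 38 tested, 18 were set apart as higher and none as lower, with a median fitted log2 difference of 1.04. All 38 lay above the mean of the others in both genotypes. MKI67, which encodes the proliferation antigen Ki-67 (ENSG00000148773, chromosome 10, 128096659 to 128126385), read 126, 208 and 527 CPM in controls and 47.4, 166 and 398 in knockouts. Number 1 was the lowest in each genotype and number 3 the highest. KIF20A, a kinesin of cell division, read 16.2, 19.9 and 74.6 CPM in controls and 7.49, 19.5 and 80.7 in knockouts. TOP2A, the topoisomerase that untangles sister chromatids, was graded in the same order, with 203, 335 and 581 CPM in controls and 116, 272 and 448 in knockouts. CCNB1, the mitotic cyclin, read 57.1, 96.4 and 166 CPM in controls and 28.1, 78.1 and 172 in knockouts.

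Cholesterol and fatty acid synthesis genes formed the third group higher in number 3. Of 33 tested, 15 were set apart as higher and none as lower, with a median fitted log2 difference of 1.01, and 32 lay above the mean of the others in both genotypes. HMGCS1, which makes the precursor HMG-CoA (ENSG00000112972, chromosome 5, 43289395 to 43313512), read 37.2, 41.0 and 113 CPM in controls and 27.9, 39.6 and 127 in knockouts (fitted log2 difference 1.73). LSS, which folds the chain into the sterol ring, read 30.1, 31.4 and 83.4 CPM in controls and 28.9, 36.9 and 94.8 in knockouts. For both genes the 4 other libraries lay within 2-fold of each other and both libraries numbered 3 lay well above them.

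Feedback and fatty acid genes stood with the sterol enzymes. INSIG1, which holds SREBP in the endoplasmic reticulum when sterol is high, read 18.2, 31.0 and 186 CPM in controls and 14.6, 38.5 and 115 in knockouts. SCD, which desaturates fatty acids, read 95.7, 268 and 1132 CPM in controls and 85.3, 225 and 449 in knockouts. FADS2, which also desaturates fatty acids, read 50.6, 98.4 and 278 CPM in controls and 34.1, 102 and 181 in knockouts. Number 1 was the lowest and number 3 the highest for INSIG1, SCD and FADS2 in each genotype. The sterol motif TCACCCCAC was in none of the 9 promoters of set-apart members at hand, and in 0.309% of those of genes tested; no match says only that these letters are not in this window.

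NF-kB and inflammatory cytokine genes stood lower in number 3. Of 24 tested (of 33 listed), 12 were set apart as lower and none as higher, with a median fitted log2 difference of -1.50, and 23 lay below the mean of the others in both genotypes. IL32, a cytokine of immune and epithelial cells (ENSG00000008517, chromosome 16, 3065297 to 3082192), read 35.0, 11.1 and 0.457 CPM in controls and 40.8, 33.4 and 0.396 in knockouts. IL6 read 166, 187 and 17.8 CPM in controls and 182, 522 and 15.7 in knockouts. IL1A, the epithelial alarm cytokine, read 170.3, 188 and 16.5 CPM in controls and 141, 207 and 10.3 in knockouts.

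For these cytokines both libraries numbered 3 lay well below the other 4. CXCL8, the neutrophil chemokine, spread widely among the others, with 222, 734 and 51.8 CPM in controls and 484, 2084 and 21.7 in knockouts. PTX3, a secreted pattern receptor, read 12.1, 77.6 and 1.88 CPM in controls and 17.6, 137 and 0.453 in knockouts. RELB, a subunit of the noncanonical branch, read 95.9, 84.0 and 16.1 CPM in controls and 99.7, 138 and 17.7 in knockouts. NFKB2 and TNFAIP3, a partner subunit and a feedback inhibitor, were also set apart, with fitted log2 differences of -1.35 and -1.83. NFKBIA, the classical inhibitor, was lower by about as much as 2-fold in the fit (-1.01) but was not set apart, and CSF1 was the 1 member not lower (0.31).

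The NF-kB motif was searched as GGG, any 2 bases, then TTTCC or TTCCC, on both strands of the same windows. It was in 6 of 11 promoters of set-apart members (54.545%), in 11 of 20 of members tested (55.0%) and in 4.206% of those of genes tested. Of all 392 promoters of genes set apart as lower, 6.633% held it. Below are IL32 (chr16:3065153-3065402, plus strand) and PTX3 (chr3:157436600-157436849, plus strand), chosen by the same rule as the E2F examples. Capitals mark the match.
IL32: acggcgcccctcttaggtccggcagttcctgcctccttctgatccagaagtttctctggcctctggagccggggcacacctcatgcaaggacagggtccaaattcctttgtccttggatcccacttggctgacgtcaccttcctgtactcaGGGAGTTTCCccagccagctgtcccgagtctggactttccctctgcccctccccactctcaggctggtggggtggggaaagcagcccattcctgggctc
PTX3: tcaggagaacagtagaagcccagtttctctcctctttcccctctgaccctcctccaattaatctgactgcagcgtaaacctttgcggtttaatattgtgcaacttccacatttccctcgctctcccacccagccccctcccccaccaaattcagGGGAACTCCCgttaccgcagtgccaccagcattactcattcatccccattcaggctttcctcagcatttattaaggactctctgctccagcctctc

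Genes of the integrated stress response stood mostly lower in number 3. Of 34 tested, 12 were set apart as lower and none as higher, with a median fitted log2 difference of -0.83. In both genotypes 24 lay below the mean of the others and 5 above it. The 12 included stress factors and their feedback genes, and no serine synthesis enzyme. ATF3, a stress transcription factor (ENSG00000162772, chromosome 1, 212565334 to 212620777), read 112, 163 and 7.83 CPM in controls and 106, 159 and 4.19 in knockouts. PPP1R15A, the phosphatase subunit that restarts translation, read 543, 391 and 35.6 CPM in controls and 450.3, 510 and 29.2 in knockouts. DDIT3, which encodes CHOP, read 171, 156 and 28.8 CPM in controls and 192, 194 and 17.8 in knockouts.

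In each of these 3 genes the 4 other libraries agreed within 2-fold and both libraries numbered 3 lay far below. TRIB3, the pseudokinase that damps ATF4, was more spread, with 569.8, 876 and 119 CPM in controls and 398, 1023 and 57.4 in knockouts. ATF4 itself read 474, 487 and 314 CPM in controls and 557, 532 and 276 in knockouts, lower in both but within 2-fold. PSAT1, of serine synthesis, read 271, 762 and 541 CPM in controls and 212, 584 and 299.6 in knockouts, so number 3 lay between the others. PHGDH and PSPH of the same route had fitted log2 differences of 0.14 and -0.07, and ASNS, asparagine synthetase, read 166, 414 and 179.8 CPM in controls and 119, 375 and 75.0 in knockouts.

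The composite CEBP-ATF motif, TGATGNAAN on both strands, was in 2 of 10 promoters of set-apart members (20%), in 1.484% of those of genes tested and in 3.571% of those of all genes set apart as lower. These 2 are ATF3 (chr1:212565157-212565406, plus strand) and CHAC1 (chr15:40953221-40953470, plus strand), a glutathione-degrading enzyme that read 52.6, 125 and 40.0 CPM in controls and 26.3, 117 and 13.2 in knockouts. Capitals mark the match.
ATF3: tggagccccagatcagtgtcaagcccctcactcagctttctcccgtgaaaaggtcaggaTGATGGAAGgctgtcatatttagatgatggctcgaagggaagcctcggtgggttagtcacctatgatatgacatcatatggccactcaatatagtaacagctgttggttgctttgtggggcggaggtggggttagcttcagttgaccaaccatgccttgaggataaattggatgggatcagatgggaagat
CHAC1: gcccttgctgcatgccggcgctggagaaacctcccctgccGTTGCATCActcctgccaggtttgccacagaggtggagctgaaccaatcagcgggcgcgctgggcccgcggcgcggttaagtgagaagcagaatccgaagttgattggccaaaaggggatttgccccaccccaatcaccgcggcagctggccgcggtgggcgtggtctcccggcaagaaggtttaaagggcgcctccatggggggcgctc

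Immediate early genes were mostly lower. Of 25 tested, 8 were set apart as lower and 1, FOS, as higher, with a median fitted log2 difference of -0.78. MYC read 176, 290 and 47.1 CPM in controls and 214, 528 and 51.8 in knockouts. JUN read 193, 115 and 23.7 CPM in controls and 205, 263 and 57.8 in knockouts. FOS was scarce, at 0.58, 0.65 and 1.93 CPM in controls and 0.89, 0.84 and 1.87 in knockouts. GADD45A, a growth-arrest gene and p53 target, read 282, 452 and 45.2 CPM in controls and 233, 586 and 32.9 in knockouts.

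Chaperones of the cytosol and of the endoplasmic reticulum both had list medians a little above 0. Of 20 cytosolic heat shock genes, 5 were set apart as higher and none as lower, while the list's median fitted log2 difference was 0.33. HSPA8, the constitutive HSP70 (ENSG00000109971, chromosome 11, 123057489 to 123063230), read 177, 278 and 1007 CPM in controls and 205, 272 and 1459.6 in knockouts. HSPB1, a small heat shock protein, read 30.8, 38.8 and 156 CPM in controls and 34.6, 50.6 and 425 in knockouts. HSPA5, the HSP70 of the endoplasmic reticulum, read 2112, 3729 and 943 CPM in controls and 1196, 3358 and 805 in knockouts. HSPA1A and HSPA1B are near-identical copies and may share reads. Of the 23 endoplasmic reticulum genes 3 were set apart as lower (HSPA5, DNAJB9 and ERN1) and CALR as higher, with a median of 0.17, 12 above and 9 below in both genotypes.

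ERBB2, the receptor that SKOV-3 carries in excess (ENSG00000141736, chromosome 17, 39687914 to 39730426), read 1787, 2444 and 9954 CPM in controls and 1368, 745 and 4664 in knockouts. Both libraries numbered 3 lay above all others. Of the 25 genes of the ERBB ligand and MAPK feedback list 3 were set apart as higher and 3 as lower, with a median of -0.10. AREG, a ligand of the related receptor EGFR, read 16.3, 56.5 and 6.86 CPM in controls and 8.47, 40.5 and 3.91 in knockouts, and EREG, another ligand, was also set apart as lower. The ligands HBEGF, TGFA and BTC were not set apart, with fitted log2 differences of 0.02, 0.12 and -0.40. EPHA4, an ephrin receptor, read 2.43, 3.21 and 26.8 CPM in controls and 1.87, 2.95 and 27.2 in knockouts. Among 12 ovarian carcinoma lineage genes PAX8 and CD24 were set apart as higher and none as lower. CD24, a surface glycoprotein, read 199, 190.2 and 948 CPM in controls and 79.4, 321 and 1446 in knockouts.

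Over all protein-coding genes that met the rule with at least 5 CPM, the largest difference common to both genotypes was that of FGFBP1, a carrier of fibroblast growth factors (ENSG00000137440, chromosome 4, 15935569 to 15938740). It read 3.71, 92.2 and 902 CPM in controls and 0.246, 42.8 and 303 in knockouts, so 1 and 2 also lay far from each other. KCNJ16, a potassium channel, was instead near 0 in all 4 others, with 0.637, 0.475 and 17.2 CPM in controls and 0.148, 0.241 and 9.63 in knockouts. HSPA2 and NES, which encode an HSP70 and the filament nestin, had the same form, with fitted log2 differences of 4.46 and 3.92. MMP1, a collagenase, was graded, at 12.0, 37.2 and 335 CPM in controls and 3.25, 24.5 and 127 in knockouts. HRK, which encodes a proapoptotic BH3 protein, was lower, at 17.3, 9.03 and 0.813 CPM in controls and 15.9, 9.88 and 1.02 in knockouts. At the 2-fold limit, ERG28, CHMP4C and FANCG lay just inside, with the smaller of their genotype differences at 1.0019, -1.0016 and 1.0015. MTMR14, PPP1R3F and SERPINH1 lay just outside, at -0.9996, -0.9994 and 0.9992.

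**Figure D2:**
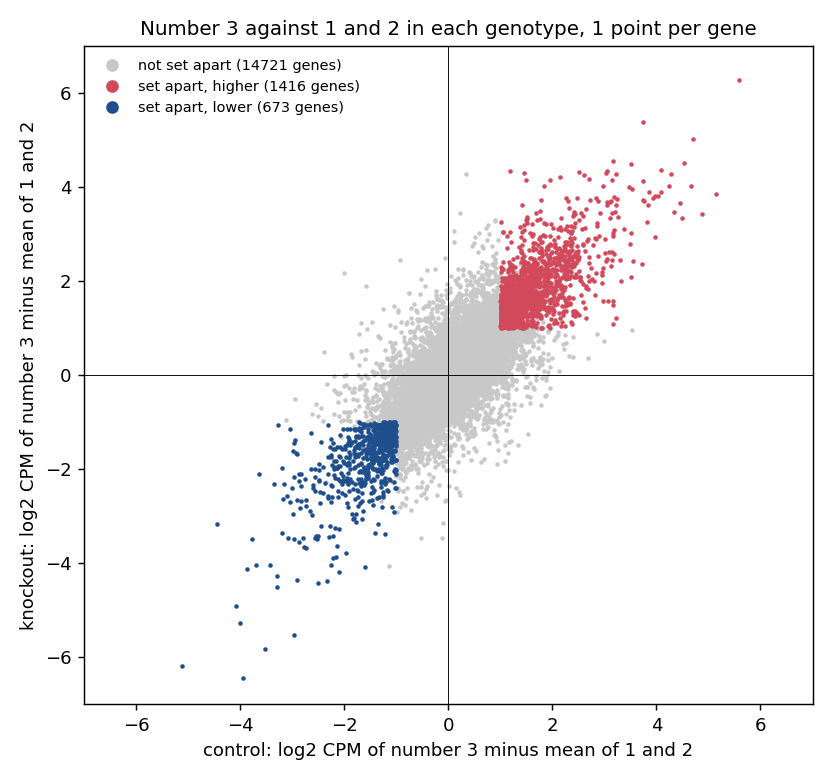
Difference in log2 CPM between number 3 and the mean of 1 and 2, controls on the x axis and knockouts on the y axis, 1 point per gene for 16810 genes. The 1416 genes set apart as higher lie at upper right and the 673 as lower at lower left; the rule itself sets these corners.

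Many set-apart genes were graded rather than split. Libraries 1 and 2 lay within 2-fold of each other in both genotypes for 721 of the 1416 higher genes (50.9%) and 418 of the 673 lower (62.1%), against 70.8% of all genes. Both libraries numbered 3 lay beyond all 4 others for 1306 of the higher and 613 of the lower. The difference reached 4-fold in both genotypes for 240 higher and 89 lower genes. Median exon length was 4321 bases for higher, 3015 for lower and 4386 for all genes. Higher genes made up from 5.33% of genes tested on chromosome 13 to 11% on chromosomes 12 and 20, and lower genes from 1.88% on X to 9.41% on 21.

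Lists of the translation and energy machinery held no gene set apart, and their medians differed in sign. None of 77 cytosolic ribosomal protein genes was set apart, but 68 lay below the mean of the others in both genotypes, with a median of -0.45. Their share of counts was 7.08%, 6.60% and 4.59% in controls 1 to 3 and 7.35%, 6.65% and 4.61% in knockouts. None of 50 nuclear oxidative phosphorylation genes was set apart (median -0.10), with 15 above and 28 below in both genotypes. None of 13 mitochondrially encoded genes was set apart, although 12 lay above in both genotypes (median 0.81). Mitochondrial reads took 7.75%, 5.34% and 7.55% of counts in controls and 10.7%, 6.54% and 16.3% in knockouts. Knockout 3 was thus the highest of the 6, and the part of this in the results was not tested.

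Other lists held members in both directions. Interferon-stimulated genes had 8 higher and 2 lower of 35 (median 0.57), with SAMD9 at 25.2, 18.5 and 96.9 CPM in controls and 15.6, 8.91 and 58.7 in knockouts. The mesenchymal and matrix list had 8 higher and 3 lower of 34 (0.47), with the filament VIM at 255, 318 and 758 CPM in controls and 133, 239.9 and 618 in knockouts. Hypoxia and glycolysis genes had 6 higher and 1 lower of 34 (0.47), among them LDHA at 836, 1116 and 2149 CPM in controls and 837, 908 and 2069.6 in knockouts. NRF2 and glutathione genes had 4 higher of 30, of which 3 were the aldo-keto reductases AKR1C1, AKR1C2 and AKR1C3, near-identical copies that may share reads. Acute-phase genes had 4 lower and 1 higher of 12. LCN2, an iron-scavenging defence protein, read 513, 208 and 58.5 CPM in controls and 923, 306 and 111 in knockouts. TXNIP, the glucose-responsive inhibitor of thioredoxin, read 1251, 1189 and 379 CPM in controls and 1319, 1304 and 255 in knockouts, and 5 of 22 genes of its FOXO, MondoA and quiescence list were lower and 1 higher. Lysosome and autophagy genes had 4 higher and 3 lower of 30 (-0.10), among the lower SQSTM1 and MAP1LC3B and among the higher CTSD, GLA and NPC2.

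Keratin and squamous genes had 4 higher and 2 lower of 15 (0.67). KRT19 read 60.9, 126 and 254 CPM in controls and 54.1, 94.1 and 224 in knockouts, whereas KRT7 read 22.4, 35.5 and 5.69 in controls and 33.2, 27.5 and 2.66 in knockouts. KRT5 rested on number 2 as well, at 0.464, 23.5 and 85.3 CPM in controls and 0, 3.79 and 14.8 in knockouts. Its fitted log2 difference of 2.91 became 4.75 without control 2.

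**Figure D3:**
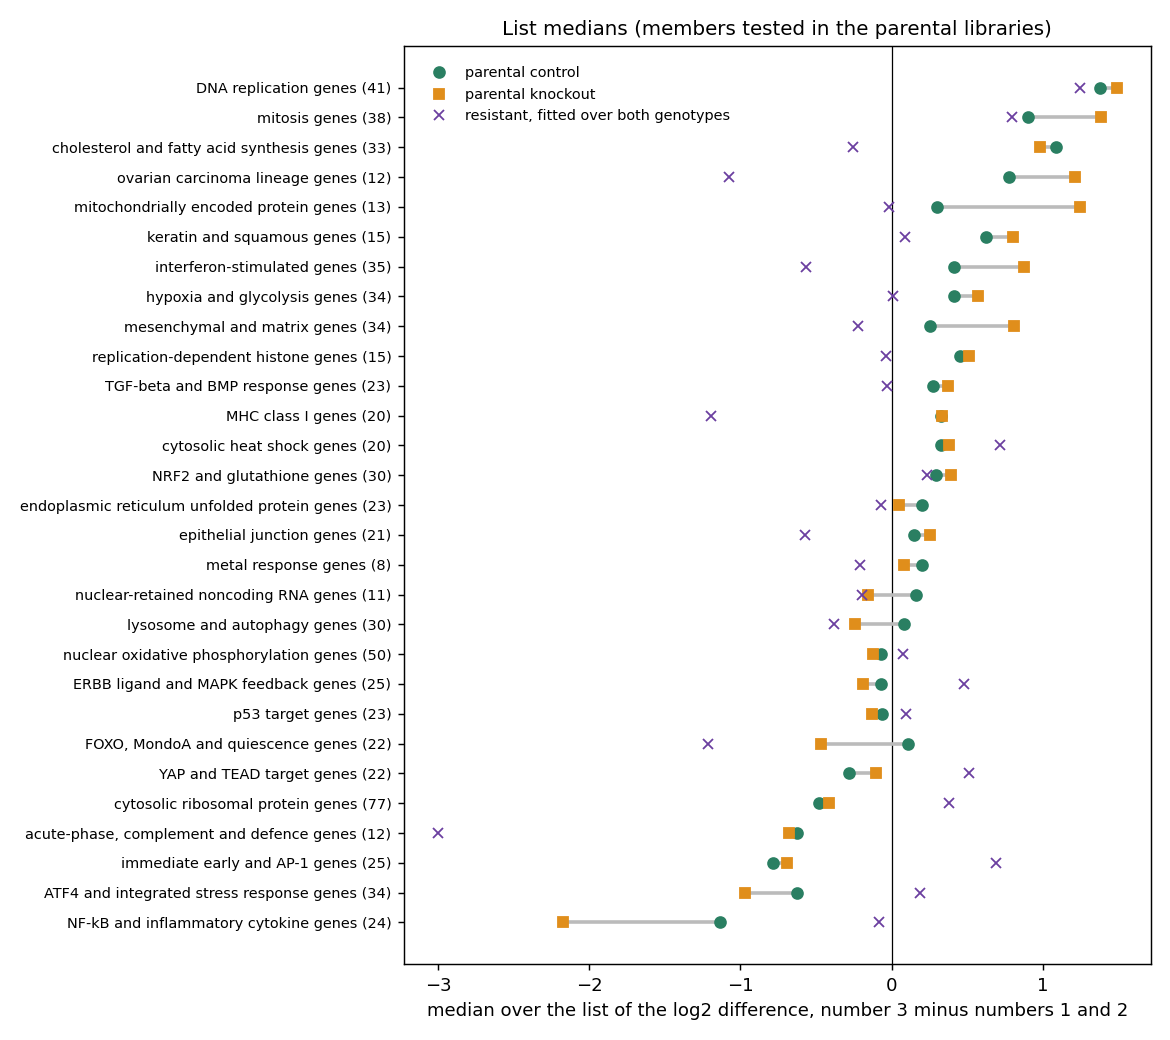
Median log2 difference, number 3 minus numbers 1 and 2, over the members of each gene list tested in that line (number tested in parental cells in brackets), for parental controls, parental knockouts and the fit to the resistant libraries. DNA replication lies at the top and NF-kB genes at the bottom in the parental libraries, and the resistant median of replication genes is 1.24.

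Markers of other cell types were read beside these groups. Fibroblast markers summed to 1.91, 3.51 and 8.69 CPM in controls and 2.51, 12.4 and 28.3 in knockouts. On average 3 of 10 were over 1 CPM in number 3, COL1A1, LUM and DCN. DCN read 1.04, 2.50 and 3.56 CPM in controls and 0.542, 8.19 and 7.87 in knockouts. PDGFRA was highest in control 3 (0.232, 0.416 and 1.12) but lowest in knockout 3 (0.591, 0.301 and 0.113). The sum of neural markers was lowest in number 3, at 103, 81.7 and 72.5 CPM in controls and 96.9, 97.3 and 61.5 in knockouts. Most of that sum was MBP (90.1, 69.65 and 60.2 in controls and 84.6, 84.9 and 51.3 in knockouts). SYP was instead highest in number 3 (3.59, 6.60 and 7.11 in controls and 4.38, 5.66 and 5.95 in knockouts). Of 5 neural markers tested, 2 lay above and 3 below the mean of the others in both genotypes. Leukocyte markers summed to 36.7, 29.7 and 93.9 CPM in controls and 32.3, 22.7 and 76.6 in knockouts. Nearly all of that sum was CD68 (35.8, 29.2 and 92.5 in controls and 30.8, 22.2 and 74.9 in knockouts), while CD3E and CD3D had 0 reads in all 6. The hemoglobin genes HBA1, HBA2 and HBB also had 0 reads in all 6. Endothelial markers summed to 90.1, 75.95 and 77.9 CPM in controls and 74.3, 71.5 and 104.7 in knockouts, nearly all of it EGFL7. On average 3 of 8 were over 1 CPM in number 3 and 1 in numbers 1 and 2. PECAM1 read 0, 0.357 and 1.37 CPM in controls and 0.049, 0.181 and 1.02 in knockouts, while EMCN had 0 reads in all 6. Of 12 genes listed as high in the resistant line, LDOC1, CYB5A, TMEM218 and MAGEH1 had 0 reads in all 6 parental libraries. FGB, also listed, is 1 of 8 hepatocyte markers. Together these 8 summed to 0.695, 0.654 and 0.4065 CPM in parental controls and 1.67, 0.602 and 1.08 in parental knockouts. In the resistant line they summed to 1.25, 5.64 and 2.28 CPM in controls and 73.3, 91.95 and 34.6 in knockouts. The 12 resistant line genes summed to 0.232, 0.654 and 4.78 CPM in parental controls and 0.936, 1.08 and 9.86 in parental knockouts. Both parental libraries numbered 3 were thus the highest of their genotype. In the resistant libraries the 12 summed to 2183 to 7226 CPM. The 2 of these genes that were tested in parental cells, SPARC and COL1A1, were both set apart as higher. They made up nearly all of the sums in number 3, with SPARC at 2.39 and COL1A1 at 2.24 CPM in control 3. In knockout 3 they read 0.850 and 8.10. COL1A1 is also 1 of the fibroblast markers above, so these sums are not separate from those. The part of these markers in the results was not tested.

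The same contrast was tested in the resistant libraries, which the rule did not use and which share no library with the parental ones. With edgeR's quasi-likelihood test and Benjamini-Hochberg adjustment, 208 of 17620 genes (1.18%) rose and 437 (2.48%) fell in number 3, and 4766 (27%) had an unadjusted p under 0.05. Of the within-genotype variation in resistant cells, 72.7% lay in deviations averaged over same-numbered libraries, and number 3 against 1 and 2 held 55.3%. As in parental cells, these figures would be well above 0 without any sharing. Same-numbered resistant libraries correlated at 0.58, -0.18 and 0.65 for numbers 1 to 3, so the numbers were not taken to pair them. The counts rested on single libraries: without knockout 2 or knockout 3 no gene passed, and without knockout 1 a single gene passed, as higher. Leaving out a resistant control gave 774 higher and 1057 lower genes without control 1, 2758 and 2497 without control 2, and 25 and 63 without control 3.

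Replication and mitosis genes stood higher in number 3 of both lines by their list medians of the fitted difference from 1 and 2 together. Cytosolic heat shock genes did as well (medians 0.33 parental, 0.72 resistant). All 41 replication genes and all 38 mitosis genes had a resistant difference above 0, with medians of 1.24 and 0.79, against -0.07 over all genes tested. Few passed the test: MCM5, FEN1 and CHAF1A of the first list (3 of 41) and FOXM1 of the second (1 of 38). FEN1, the flap nuclease of lagging-strand synthesis, read 34.8, 90.6 and 157 CPM in resistant controls 1 to 3 and 43.0, 60.2 and 227 in resistant knockouts (log2 1.75 ± 0.36 SE, edgeR adjusted p = 0.0361). FOXM1, a transcription factor of mitotic genes, read 13.6, 46.0 and 82.3 CPM in resistant controls and 25.2, 36.5 and 118 in resistant knockouts (1.71 ± 0.39 SE, edgeR adjusted p = 0.0425). Number 3 was highest and number 1 lowest in each genotype for both genes. MKI67 and ANLN of the mitosis list kept that order. KIF20A and DLGAP5 kept it in resistant knockouts but not in resistant controls. There they read 28.2, 91.0 and 70.4 CPM and 25.4, 75.1 and 63.2 CPM, highest in number 2. Among resistant controls, 2 and 3 differed least (chi-square over degrees of freedom 34.2), and pairs with number 1 gave 142 and 187.

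The lower groups did not recur in this form. NF-kB genes had a resistant median of -0.08 with 0 higher and 1 lower (NFKBIZ) of 21 tested, and ATF4 genes one of 0.19, with TRIB3 higher and DDIT4 lower. Immediate early genes had a median of 0.69 and 5 that rose, FOSL1, EGR1, MYC, DUSP1 and MAFF. MYC read 24.7, 59.4 and 98.4 CPM in resistant controls and 32.5, 46.5 and 105 in resistant knockouts (log2 1.32 ± 0.32 SE, edgeR adjusted p = 0.0496), whereas it was lower in number 3 of parental cells. Cholesterol genes had a median of -0.25, with TM7SF2 lower and none higher. Cytosolic ribosomal genes had a median of 0.38, with none passing. TXNIP fell, at 183, 50.3 and 9.40 CPM in resistant controls and 192, 53.2 and 9.64 in resistant knockouts (-3.65 ± 0.64 SE, edgeR adjusted p = 0.0312), as it was lower in parental number 3. The differences between the lines were not tested.

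Of the 1275 parental higher genes tested in resistant cells, 13 rose (1.02%) and 99 fell (7.76%), against 1.26% and 2.30% of all 15771 genes tested in both. Of the 575 lower genes, 40 rose (6.96%) and 10 fell (1.74%). Across these genes the fitted differences of the lines had a Pearson r of -0.15 and a Spearman rho of -0.16; genes are not independent replicates. KLHL14, for example, was at 9.71 and 12.9 CPM in parental number 3 libraries, and under 0.6 in the other 4, but fell in resistant cells (-4.78 ± 0.86 SE, edgeR adjusted p = 0.0314). ANKRD1, a YAP target, rose there to 390.3 and 519 CPM in number 3 (2.67 ± 0.46 SE, edgeR adjusted p = 0.0294) and was lower in parental number 3.

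**Figure D4:**
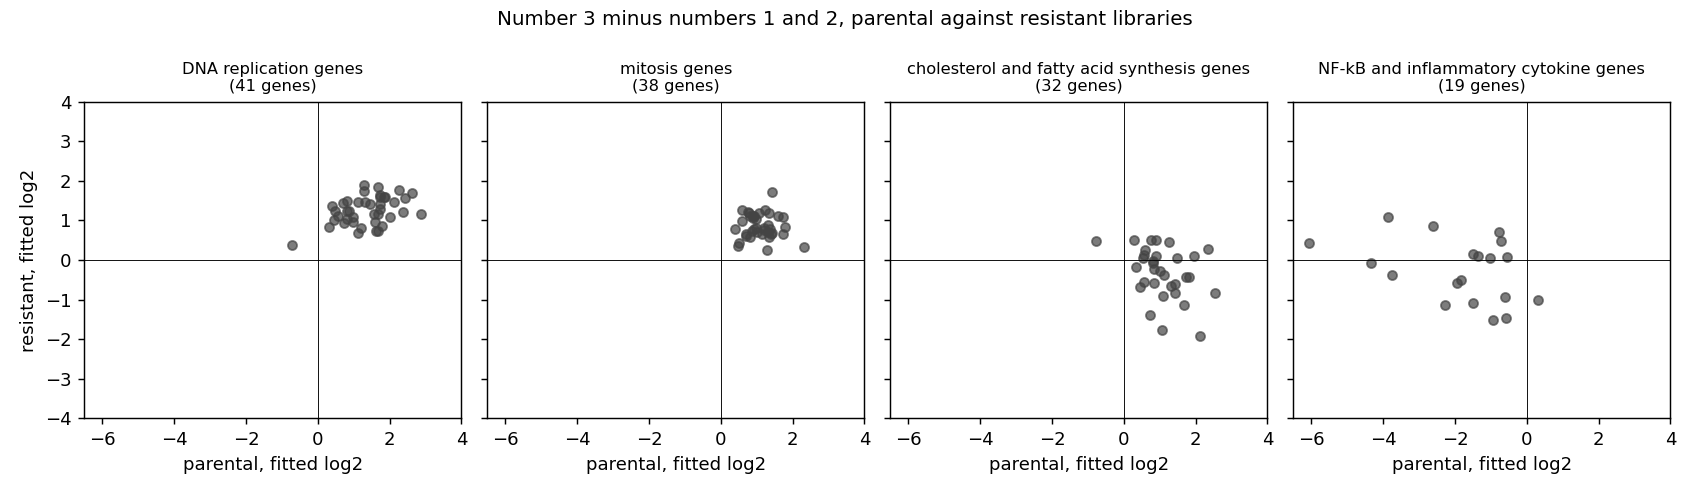
Fitted log2 difference of number 3 against 1 and 2, parental on the x axis and resistant on the y axis, 1 point per gene tested in both, in 4 lists. Replication and mitosis genes lie above 0 in the resistant fit in all 41 and all 38 cases, while cholesterol and NF-kB genes lie on both sides of 0.

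With number 3 as a term, the knockout was tested in parental cells. No gene of 16810 passed in edgeR (0% higher, 0% lower, smallest adjusted p 0.333), while 996 had an unadjusted p under 0.05. Without any number term the count was also 0, with 343 at an unadjusted p under 0.05. With all 3 numbers as a replicate block, 563 genes were higher and 663 lower in the knockout, of which 228 (18.6%) were set apart by number 3, against 12.4% of all genes tested. KDM5B was itself lower in number 3 in both genotypes, with a fitted log2 difference of -0.94, and it fell in resistant number 3 (-1.26, edgeR adjusted p = 0.0386).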

How the data were processed

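RNA-seq of 12 libraries was analysed, 6 of them parental. The authors deposited a table of raw read counts for each gene. Poly(A) transcripts were enriched and a directional kit was used, per the labels' protocols. The build GRCh38 and the tools STAR 2.7.10a, featureCounts 2.0.1 and Trim Galore 0.6.10 are named in the submitters' processing notes. The strand setting was not given in the sources used here, so overlapping, antisense and near-identical genes may share reads. The table holds 59542 rows and 59498 identifiers; 44 identifiers stand on 2 rows with 0 reads. A second deposited copy was equal on all 59543 lines. GENCODE release 29 names covered 57380 identifiers. Libraries held 15659352 to 19706754 counts; reads carry no molecular identifiers. No pair of libraries within a group agreed within sampling noise (chi-square over degrees of freedom at least 27.1).

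The 6 libraries of each line were filtered with filterByExpr and scaled with TMM in edgeR 4.0.16 (R 4.3.3), and fitted with glmQLFit (robust) on number 3 and knockout status. Log2 CPM used a prior count of 2. Fitted differences follow mean CPM and can differ from per-library log2 differences; SE is the log2 value over the square root of F. The script was tested on simulated data. The members and the 37 gene lists (921 of 923 entries found) were chosen with earlier results of these data known. Named genes were the 10 largest per direction with at least 5 CPM, up to 4 set-apart members per list with at least 1 CPM, 3 genes on each side of the 2-fold limit, the 6 largest per direction in resistant libraries, and KDM5A and KDM5B; further list members named in the text were chosen after their values were seen. A few genes that meet these criteria are left out of the text. Same-numbered parental libraries correlated at 0.70, 0.81 and 0.81, so numbers were taken to pair them; this comes from the data, not the labels. Alternatives were DESeq2 1.42.0, limma-voom (limma 3.58.1), other scalings and filters, other covariates and leaving out each library. Adjusted p-values are Benjamini-Hochberg over all genes tested at 0.05.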

Additional observations from a re-analysis of the deposited data

Results flagged for a closer look

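A total of 13 named genes stood in opposite directions in the lines: in every library numbered 3 they lay to one side of libraries 1 and 2 in parental cells and to the other side in resistant cells. The difference between the lines was not tested. The resistant log2 difference was negative, and the parental one positive, for KLHL14 (-4.78), SESN3 (-3.22), KCNJ16 (-2.99), BMP4 (-2.56), EPHA4 (-2.13), MUC1 (-1.92), AKR1C3 (-1.81), SAMD9L (-1.65) and ERAP2 (-1.51). It was positive, and the parental one negative, for ANKRD1 (2.67), MAFF (1.79), GADD45A (1.74) and MYC (1.32). BMP4, a secreted growth factor, had a parental difference of 2.42.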

How the results depend on the processing

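The counts of genes set apart in parental cells moved within 1.5 times under other scalings, filters and prior counts; leaving out a library gave 1199 to 2587 higher and 656 to 1550 lower, with 2587 and 1550 without control 3 and 1773 and 1219 without knockout 3. With 1 library numbered 3 left out, the rule asks for the remaining one only. Resistant counts, higher and lower, were 132 and 270 with DESeq2 size factors, 317 and 1075 with library size alone, 912 and 1574 for genes with at least 1 count, 796 and 1307 in DESeq2, 54 and 107 in limma-voom, 127 and 216 with all 12 libraries in 1 fit, and 0 and 0 without the knockout covariate (3880 at an unadjusted p under 0.05). Leaving out a library gave 0 to 2758 higher and 0 to 2497 lower. Knockout counts in parental cells, higher and lower, were 110 and 114 for genes with at least 1 count, 39 and 44 in DESeq2, 0 and 0 in limma-voom and 563 and 663 with the replicate block; leaving out each library gave 0. In resistant cells the numbers were not taken to pair the libraries. The causes of these moves were not tested. The FOXO list median turned from -0.17 to 0.0473 without knockout 1 and 0.0323 without knockout 3 (lowest -0.51), and the interferon median from 0.57 to -0.0225 without knockout 3 (highest 0.91). The KDM5B knockout difference ran from -0.51 to 0.279 and was 0.0388 without control 2. Named resistant genes kept their direction in every alternative, but in 67 of the refits they no longer passed and in 101 they did. No named parental fit turned sign in 8 alternatives; FGFBP1 became 6.14, COL8A1 4.16 and ANKRD1 -2.34 without knockout 2, IGFBP3 2.30 without control 2 and BMP4 1.40 without knockout 3. Library size alone moved the median of all genes to -0.10 and the metal response median from 0.08 to -0.02.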

Other observations

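Parental genes of TGF-beta and BMP signalling were not part of the account above. Of 23 tested, 4 were set apart as higher and 2 as lower. ID1, a target of BMP signalling that inhibits differentiation factors, read 34.8, 119.5 and 246 CPM in controls 1 to 3 and 30.7, 51.4 and 229 in knockouts. SMAD6, an inhibitor in the same pathway, read 14.7, 24.5 and 54.6 CPM in controls and 10.4, 19.3 and 39.1 in knockouts. NOG, an antagonist of BMP ligands, was scarce and lower, at 2.03, 1.90 and 0.152 CPM in controls and 1.67, 0.964 and 0.340 in knockouts.

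Resistant number 3 libraries had their own leading genes. KRT17, an epithelial keratin, read 0, 0.317 and 1.56 CPM in resistant controls and 1.32, 5.09 and 33.6 in resistant knockouts, and FGF1, a fibroblast growth factor, 3.69, 28.1 and 105 in controls and 4.96, 9.13 and 85.7 in knockouts. ELF3, an epithelial transcription factor, read 163, 39.3 and 1.83 CPM in resistant controls and 188, 94.8 and 9.83 in resistant knockouts.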
